A study of Homo sapiens with 9 samples.

Results

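Gene expression was compared between Raji cells given hydroxyurea (HU) and Raji cells given the solvent DMSO. The comparison used 6 of the 9 RNA libraries of the series, 3 per group, and covered every gene with at least 1 CPM (counts scaled to library size) in at least 3 of the 9 libraries, which was 11346 of the 15436 genes listed. Raji is an established human B-cell line from a Burkitt lymphoma, and the labels name no genetic change in any group. The other 3 libraries came from Raji cells given thymidine and nocodazole (Thy-Noc), and are used below as a second, directly tested comparison for the same genes. The sources used here give neither dose nor time for any treatment. The labels do not say that replicates were separate cultures, so each p-value reflects sample-to-sample spread that may be only technical.

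HU inhibits ribonucleotide reductase, the enzyme that makes deoxynucleotides, so that replication forks slow or stall and the ATR-CHK1 checkpoint holds cells back from mitosis. Stalled or broken forks can also release DNA fragments that cells sense as foreign, a route to interferon signalling. B cells add a further layer, because NF-kB, AP-1 and interferon regulatory factors control the surface receptors and chemokines through which they meet T cells.

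Summed counts ran from 77961480 to 110485145 in DMSO and from 74940755 to 95298522 in HU. All 12 B-cell markers were listed, with summed levels of 4560 to 5232 CPM in DMSO against 3193 to 6596 CPM in HU. Of 17 markers of T and NK cells, 12 of myeloid cells, 14 of erythroid cells and megakaryocytes and 13 of fibroblasts and epithelia, 2, 2, 1 and 1 were listed. The summed levels of these 4 lists reached at most 1.86, 1.05, 15.7 and 3.87 CPM in DMSO against 2.34, 3.25, 16.5 and 13.7 CPM in HU. The last pair rested on EPOR and COL1A1, and the part of other cell types in the results was not tested. HU replicate 2 stood apart from the other 2 HU libraries on the third principal component (11.9% of the variance), at 33.6 against −19.8 and −13.9. In 1838 tested genes (16.2%), libraries of 1 group differed by at least 10-fold after 0.5 CPM was added, and some reads of a gene may be missing from its deposited value. In these bulk samples, fewer cells expressing a gene and less RNA per cell cannot be told apart.

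Under a quasi-likelihood test in edgeR, with p-values adjusted after Benjamini and Hochberg at 0.05, 227 genes were higher in HU (2.0% of those tested) and 177 were lower (1.56%), which together made 404 (3.56%). The higher genes moved further: their median log2 fold change was 1.41, and 156 of the 227 passed 2-fold, while the lower genes had a median of −0.77 and 58 of the 177 passed 2-fold. The median over all tested genes was 0.02. Of the 404, only CEP68 was among the genes with a 10-fold range within a group, and it was so through Thy-Noc replicate 2. Calls were sensitive to single libraries. Leaving out DMSO replicate 1, 2 or 3 left 23, 25 or 12 genes higher and 16, 18 or 8 lower. Leaving out HU replicate 1, 2 or 3 left 23, 163 or 36 higher and 16, 113 or 25 lower. All 404 genes kept their direction and an unadjusted p below 0.05 in each of these 6 fits, but this was largely fixed in advance. HU and DMSO libraries did not overlap in any of the 404, so leaving out 1 library could hardly reverse a direction. The 404 were also picked by small p in the same libraries. Over all 11346 tested genes, every HU library lay above every DMSO library in 1753 and below in 1731. Called in all 6 fits were 11 genes: CRIP3, JSRP1, SLBP, TNFSF9, JUNB, SNHG32, ECE1, SETD2, ABHD17B, NCKAP1 and UBE2J1. The plot of fold change against expression shows the calls among all genes.

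**Figure D1:**
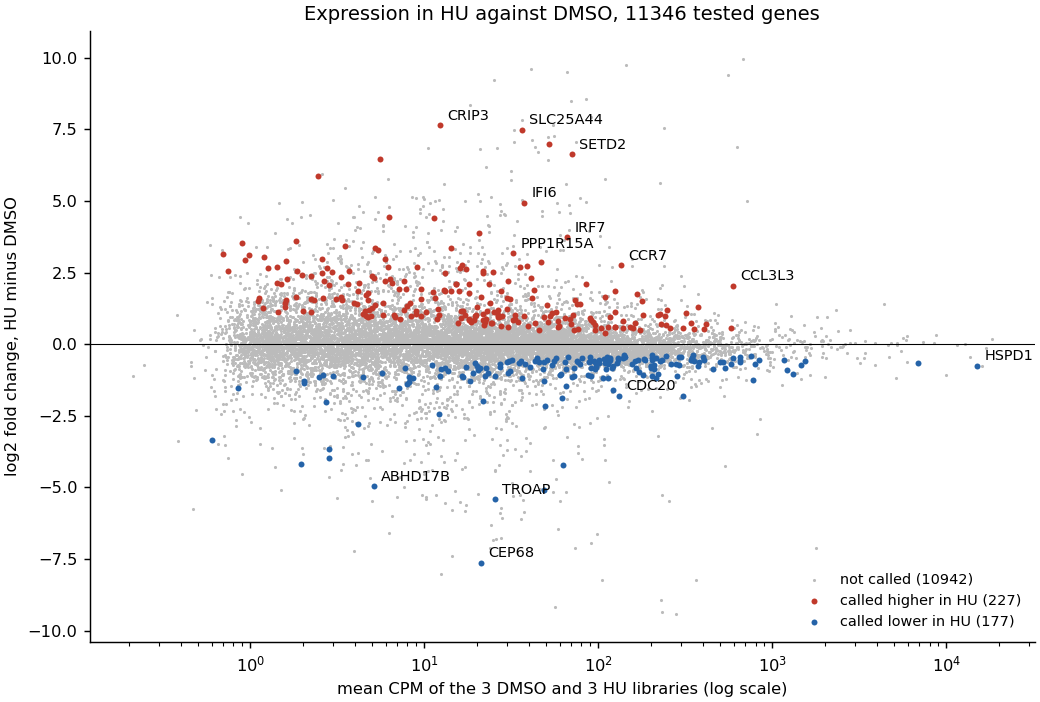
Log2 fold change of HU over DMSO (vertical axis) against the mean CPM of the 6 libraries (horizontal, log scale) for the 11346 tested genes, 1 point per gene. The 227 genes called higher (red) spread up to 7.64 on the log2 scale, while most of the 177 called lower (blue) lie close below 0. Many grey points lie far from 0 without a call.

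A few genes changed from near 0 to clear expression. CRIP3, a LIM-domain protein (ENSG00000146215, chromosome 6, 43299710 to 43308797, minus strand, GRCh38), stood at 0.0634, 0.0840 and 0.216 CPM in DMSO, against 23.7, 24.4 and 25.1 CPM in HU. SLC25A44, a mitochondrial carrier of branched-chain amino acids (ENSG00000160785, chromosome 1, 156193932 to 156212796, plus strand), stood at 0.545, 0.131 and 0.534 CPM in DMSO, against 85.7, 57.3 and 74.0 CPM in HU. SETD2, the methyltransferase for lysine 36 of histone H3, stood at 1.76, 1.36 and 1.12 CPM in DMSO, against 174, 111 and 135 CPM in HU. In all of these every HU library lay far above every DMSO library. The log2 fold changes were 7.64 ± 0.54 (SE) for CRIP3, 7.49 ± 0.77 for SLC25A44 and 6.63 ± 0.47 for SETD2. ZEB1, a zinc finger repressor, rose by 7.0 ± 1.03 and WDR19, a protein of intraflagellar transport, by 4.39 ± 0.62. In edgeR, the adjusted p of these 5 lay between 0.00329 and 0.0228. ZEB1 has 25 annotated transcripts, WDR19 18, SETD2 9, CRIP3 7 and SLC25A44 5, so in each a value for part of the gene is possible.

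Other genes went the opposite way. ABHD17B, a depalmitoylase (ENSG00000107362, chromosome 9, 71862452 to 71910931, minus strand), stood at 9.62, 10.5 and 9.59 CPM in DMSO, against 0.228, 0.415 and 0.315 CPM in HU. Its log2 fold change of −4.95 ± 0.27 (SE) had the smallest p of all tested genes (edgeR adjusted p 0.00274). TROAP, a spindle-associated protein needed for bipolar spindles, stood at 29.8, 44.6 and 74.6 CPM in DMSO, against 0.658, 1.78 and 1.04 CPM in HU. WDR41, a partner of C9orf72 in lysosome regulation, stood at 89.6, 105 and 88.3 CPM in DMSO, against 3.09, 3.49 and 1.72 CPM in HU. TRAF5, an adaptor of TNF receptors, stood at 2.07, 4.0 and 5.12 CPM in DMSO, against 0.202, 0.220 and 0.191 CPM in HU. The groups did not overlap in any of these, as in every called gene. The edgeR adjusted p of TROAP, WDR41 and TRAF5 ran from 0.0223 to 0.0377. CEP68, a centrosome linker protein, was at 42.2 ± 1.23 CPM in DMSO against 0.211 ± 0.134 CPM in HU (mean ± SD, n = 3), with an edgeR adjusted p of 0.0466. WDR41 has 28 annotated transcripts, TROAP 16, CEP68 5 and ABHD17B 2, so here too a value for part of a gene is possible.

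The same genes were then compared between HU and Thy-Noc. HU against Thy-Noc, tested in the same edgeR fit, had 79 genes higher in HU (0.696%) and 120 lower (1.06%). Both comparisons use the same HU libraries, so their values are given side by side and not as independent evidence. SLC25A44 stood at 0.437, 1.16 and 1.22 CPM in Thy-Noc, ZEB1 at 0.369, 0.947 and 1.08 CPM and WDR19 at 0.451, 0.247 and 0.984 CPM. Their HU values differed from these by 6.27 ± 0.72, 7.02 ± 1.03 and 5.27 ± 0.65 on the log2 scale (edgeR adjusted p 0.0186, 0.0346 and 0.0230). ABHD17B differed from Thy-Noc by −5.12 ± 0.27 (edgeR adjusted p 0.00229). CRIP3, by contrast, stood at 33.6, 33.3 and 42.4 CPM in Thy-Noc, and its difference of −0.58 ± 0.40 did not pass (edgeR adjusted p 0.512). SETD2 (1.0 ± 0.37), WDR41 (0.05 ± 0.60) and TRAF5 (−0.04 ± 0.70) did not pass either, with edgeR adjusted p of 0.205, 0.983 and 0.988. SLBP, a binding protein of histone mRNA, stood at 254, 230.3 and 288 CPM in HU and reached 232, 286 and 263 CPM in Thy-Noc, while DMSO libraries had 77.4, 73.8 and 79.1 CPM. Its difference between HU and Thy-Noc was −0.02 ± 0.11 (edgeR adjusted p 0.970).

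**Figure D2:**
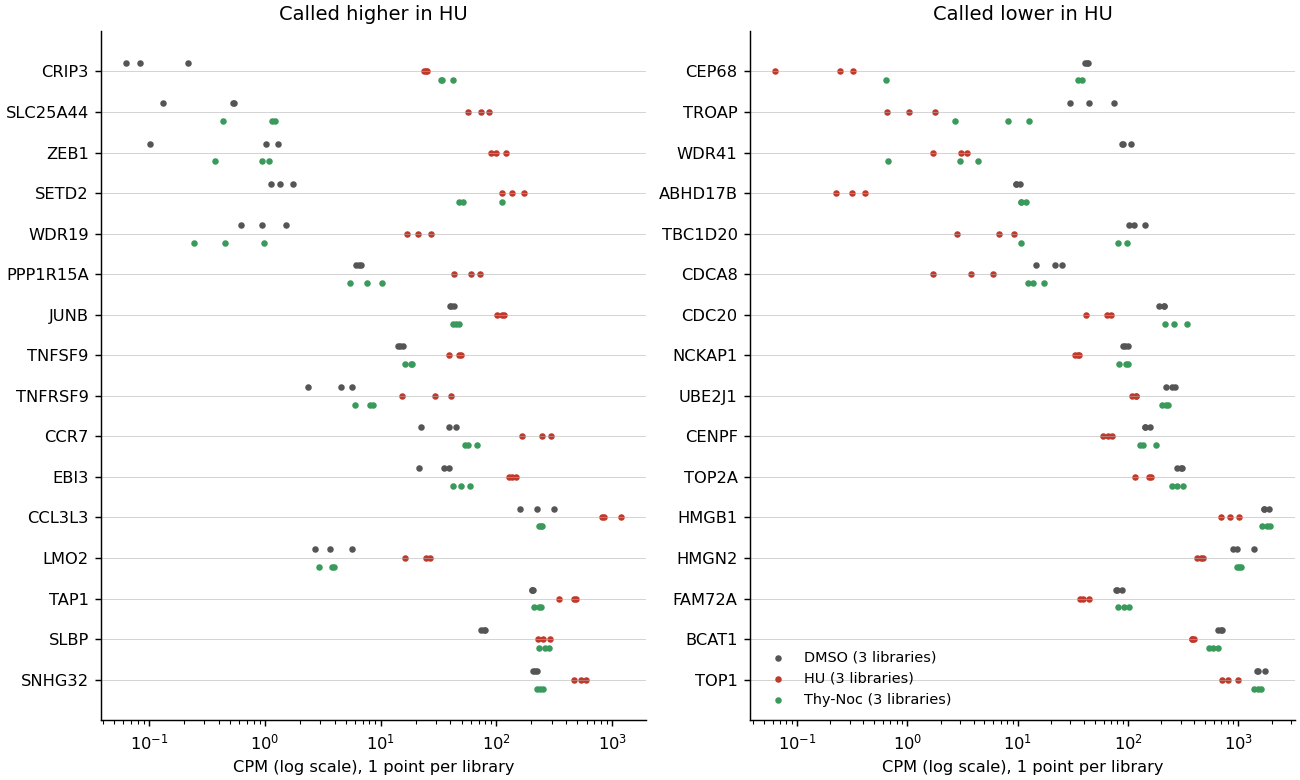
CPM (log scale) of 16 genes called higher and 16 called lower in HU, 1 point per library, for DMSO (grey), HU (red) and Thy-Noc (green). As in every called gene, the HU and DMSO points do not overlap for any gene shown. For CRIP3, SLBP and WDR41 the Thy-Noc points lie beside those of HU.

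All calls among genes of the interferon response were in the higher direction. Of 37 tested interferon-stimulated genes, 34 had a positive fold change, 5 were called higher and 0 lower, and the list's median log2 fold change was 1.78 beside 0.02 over all genes. The 5 were IFI6, SAMD9L, HELZ2, IFIT5 and EPSTI1. EPSTI1, an interferon-inducible gene first found in epithelial-stromal interaction, had the steadiest rise, from 12.5, 8.87 and 10.6 CPM in DMSO to 49.9, 39.1 and 59.5 CPM in HU (log2 fold change 2.21 ± 0.21, edgeR adjusted p 0.00884). SAMD9L, an antiviral translation inhibitor, stood at 2.54, 1.85 and 3.23 CPM in DMSO, against 35.7, 12.1 and 29.7 CPM in HU (3.35 ± 0.46, edgeR adjusted p 0.0222). IFIH1, the MDA5 sensor of double-stranded RNA and the only called member of 27 tested nucleic acid sensing genes, stood at 44.8, 41.7 and 41.9 CPM in DMSO, against 132, 69.3 and 141 CPM in HU (1.42 ± 0.25, edgeR adjusted p 0.0346). In these 3, as in every gene called higher, each HU library exceeded every DMSO library. HU replicate 2 was the lowest HU library in these 3, and in 117 of the 227 genes called higher.

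HU replicate 2 had the lowest value of the 3 HU libraries for 30 of the 37 interferon-stimulated genes, beside 4129 of all 11346 tested genes. The list's median log2(CPM + 0.5), set against the DMSO mean, was 1.58 and 1.70 in HU replicates 1 and 3 and 0.80 in replicate 2. DMSO libraries lay at 0.20, −0.24 and 0.11. Without HU replicate 2, edgeR called 11 of the 37 higher. Without DMSO replicate 1, 2 or 3 it called 1, 1 or 0, and without HU replicate 1 or 3 it called 2 or 1. In Thy-Noc, IFI6, a mitochondrial interferon-induced protein, stood at 5.70, 2.56 and 4.50 CPM, against 1.91, 1.83 and 3.38 CPM in DMSO against 108, 12.7 and 97.7 CPM in HU. Its difference between HU and Thy-Noc, 4.09 ± 0.82, did not pass (edgeR adjusted p 0.0570), while those of EPSTI1 (1.72 ± 0.20) and SAMD9L (2.97 ± 0.45) did, with edgeR adjusted p of 0.0186 and 0.0358. Of 20 interferon receptors, kinases and regulatory factors, 3 were called higher and 0 lower: IRF7, which drives interferon genes (13.4-fold), SOCS1, which blocks JAK kinases (2.71-fold), and IFNGR1, a chain of the interferon gamma receptor (2.09-fold). Of this list edgeR called 2 without HU replicate 2 and 0 without any 1 of the other 5 libraries.

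**Figure D3:**
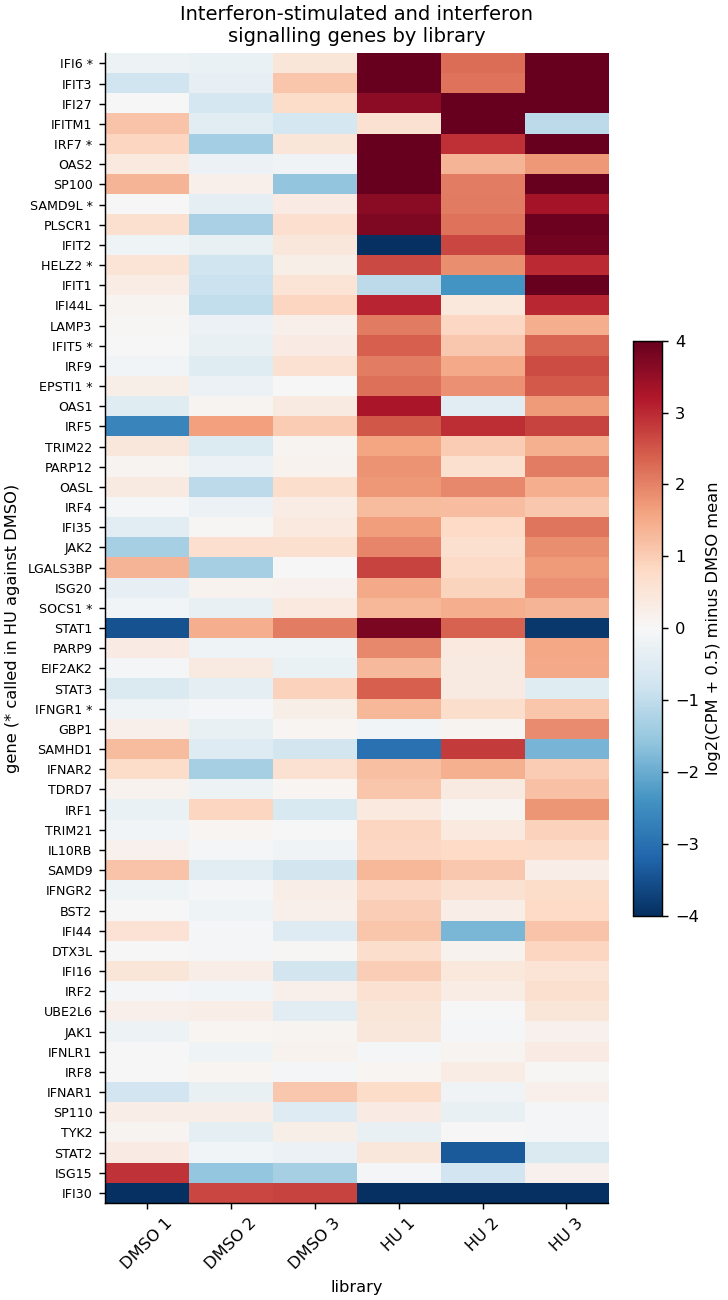
Each row is 1 of the 57 tested genes of the interferon-stimulated and interferon signalling lists, ordered by fold change, and each column is 1 library. Colour gives log2(CPM + 0.5) minus the DMSO mean, with values beyond 4 in either direction drawn at the ends of the scale, and stars mark the 8 called genes. HU replicate 2 is paler than replicates 1 and 3 in most rows.

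Promoter sequences of called genes that held the letters of the interferon-stimulated response element, here GAAANNGAA on either strand, are shown for the position of the match. Windows of 250 bases before and 50 after each gene's start were taken from RefSeq (GRCh38.p14), and 8657 of the 11346 tested genes matched one. The element was found in 65.6% of 32 matched interferon-stimulated genes, in 11.9% of 177 matched genes called higher, in 5.63% of 142 called lower, in 6.80% of all matched tested genes and in 8.32% of the 27305 windows in the table. Of the 8 called genes of both interferon lists, 7 matched a window. The element was in 4 of these (IFI6, IFIT5, EPSTI1 and SOCS1) and not in 3 (SAMD9L, HELZ2 and IFNGR1). The stretches below lie upstream of the start and read 5′ to 3′ along the gene's strand, with the letters of a match in capitals. The IFI6, IFIT5 and IFIH1 stretches hold further matches wholly or partly in lower case, and TNFSF10 holds another outside its stretch. They are chr1:27672269-27672337 (minus strand, IFI6), chr10:89414494-89414562 (plus, IFIT5), chr2:162318798-162318866 (minus, IFIH1) and chr3:172523578-172523646 (minus, TNFSF10). IFIH1 and TNFSF10 come from the lists of nucleic acid sensing and of the TNF superfamily.
IFI6: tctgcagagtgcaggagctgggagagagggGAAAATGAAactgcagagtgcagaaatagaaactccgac
IFIT5: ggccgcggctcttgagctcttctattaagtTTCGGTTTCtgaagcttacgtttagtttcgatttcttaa
IFIH1: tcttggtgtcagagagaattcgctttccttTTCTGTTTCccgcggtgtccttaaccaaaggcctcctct
TNFSF10: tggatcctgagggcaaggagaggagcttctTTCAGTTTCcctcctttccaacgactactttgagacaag
The match in capitals in IFI6 ends 106 bases before the start, and those in IFIT5, IFIH1 and TNFSF10 end 35, 143 and 177 bases before it. A match describes letters only and was not tested for binding.

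Of 22 tested ligands and receptors of the TNF superfamily, 6 were called higher and 0 lower, 18 had a positive fold change, and the median log2 fold change was 1.05. With 1 library left out, edgeR called 5 higher without HU replicate 2, 2 without HU replicate 3, and 1 without any other. Among the ligands, TNFSF10, the death ligand TRAIL, went from 0.545, 0.364 and 0.750 CPM in DMSO to 14.9, 2.92 and 18.3 CPM in HU (4.44 ± 0.74, edgeR adjusted p 0.0302). TNFSF9, the ligand 4-1BBL, went from 15.6, 14.0 and 14.6 CPM to 47.8, 49.3 and 38.9 CPM (1.62 ± 0.14, edgeR adjusted p 0.00789). The rise of TNFSF9 was nearly equal in the 3 HU libraries, unlike that of TNFSF10, which was weakest in replicate 2. TNFSF4, the ligand OX40L, and TNF itself rose 5.71-fold and 4.36-fold. Among the receptors, TNFRSF9, the receptor 4-1BB that binds TNFSF9, went from 4.56, 2.34 and 5.63 CPM to 40.7, 15.4 and 29.6 CPM (2.77 ± 0.46, edgeR adjusted p 0.0302). CD40, through which T cells activate B cells, went from 26.1, 22.7 and 36.2 CPM to 90.1, 82.2 and 46.8 CPM (1.37 ± 0.28, edgeR adjusted p 0.0492). Against Thy-Noc, TNFSF9 (1.36 ± 0.14) and TNF (2.05 ± 0.32) were higher in HU with edgeR adjusted p of 0.0142 and 0.0383, and TNFSF10 and TNFRSF9 did not pass (0.0665 and 0.0815).

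Chemokines, interleukins and their receptors had 7 of 30 tested members called higher, 0 lower and a median log2 fold change of 1.10. Leaving out DMSO replicate 1, 2 or 3 gave 1, 3 or 0 calls, and leaving out HU replicate 1, 2 or 3 gave 0, 6 or 2. CCR7, the receptor that guides lymphocytes into lymph nodes, stood at 38.6, 22.1 and 44.8 CPM in DMSO, against 296, 165 and 246 CPM in HU (2.75 ± 0.32, edgeR adjusted p 0.0159). CXCR5, which draws B cells towards follicles, stood at 6.45, 3.80 and 11.9 CPM in DMSO, against 45.4, 34.4 and 47.7 CPM in HU (2.52 ± 0.44, edgeR adjusted p 0.0332). Both receptors were thus several-fold above DMSO in each HU library. Of the ligands, CCL22, which attracts CCR4-bearing T cells, rose 5.91-fold. CCL3L3 rose 4.09-fold, from 312, 160.5 and 224 CPM to 1189, 818 and 845 CPM, but has near-identical copies between which reads could be split. EBI3, a subunit of interleukins 27 and 35, went from 35.4, 21.4 and 38.7 CPM to 147, 137 and 127 CPM (2.11 ± 0.25, edgeR adjusted p 0.0159). The receptor chains IL21R and IL2RG, which pair to bind interleukin 21, rose by smaller steps, 2.16-fold and 1.65-fold. CCR7 (1.99 ± 0.31), CCL3L3 (1.98 ± 0.26) and EBI3 (1.45 ± 0.24) were also higher than in Thy-Noc, with edgeR adjusted p from 0.0253 to 0.0392.

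Genes that Epstein-Barr virus latency proteins are known to induce held the largest share of calls of the lists with 5 or more tested members. Raji carries this virus, and no viral transcript was analysed here. Of the 28 that were tested, 25 lay above DMSO, 11 were called higher and 0 lower, and the median was 1.49. The count was 2, 4 or 1 without DMSO replicate 1, 2 or 3, and 1, 7 or 5 without HU replicate 1, 2 or 3. The medians by library, as log2(CPM + 0.5) against the DMSO mean, were 1.53, 1.35 and 1.44 in HU replicates 1, 2 and 3 and −0.37 to 0.23 in DMSO. TRAF1, an adaptor of TNF receptors, went from 74.6, 35.2 and 52.3 CPM to 226, 175 and 182 CPM (1.85 ± 0.27, edgeR adjusted p 0.0224). RUNX3, a transcription factor, went from 251, 249 and 245 CPM to 371, 371 and 356 CPM (0.56 ± 0.07, edgeR adjusted p 0.0159), a small step with little spread. BCL2A1, which protects B cells from apoptosis, rose 3.49-fold, SLAMF1, a self-ligand of lymphocytes, 2.99-fold, and PLEK, a substrate of protein kinase C, 1.48-fold. The other 6 were JUNB, EBI3, CCR7, IRF7, CCL22 and CD40, 5 of which also belong to lists above. JUNB, TRAF1, RUNX3 and SLAMF1 also belong to lists below, and BCL2A1 to a list of the BCL2 family. The calls of this list are therefore not separate from those of the others.

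Of 19 MHC class I and peptide loading genes, 4 were called higher and 0 lower, with a median of 0.17. TAP1, the transporter that carries peptides into the endoplasmic reticulum, stood at 203, 204 and 208 CPM in DMSO, against 482, 345 and 472 CPM in HU (1.08 ± 0.14, edgeR adjusted p 0.0180). TAPBP, which bridges TAP to class I chains, rose 1.57-fold, and the class I genes HLA-E and HLA-B rose 2.03-fold and 2.21-fold. HLA genes are polymorphic and share sequence, so their counts are uncertain. Of 22 MHC class II pathway genes, 3 were called higher and 0 lower (median 0.17). Of 39 costimulation and adhesion genes, 4 were called higher and 0 lower (median 0.64): CD48, CD80, SLAMF1 and CD40. CD80, a ligand of CD28, stood at 6.50, 3.89 and 6.63 CPM in DMSO, against 16.5, 22.5 and 23.3 CPM in HU (1.87 ± 0.36, edgeR adjusted p 0.0419). Without HU replicate 2, edgeR called 4 class I, 1 class II and 2 costimulation genes higher. Without HU replicate 3 these counts were 0, 0 and 2. Without DMSO replicate 1 or HU replicate 1 they were 1, 0 and 0, and without DMSO replicate 2 or 3 all were 0.

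The lists of AP-1, MAP kinase feedback, NF-kB and stress response genes together held calls in both directions. Of 22 AP-1, EGR, KLF and NR4A family members and relatives, 4 were called higher and 1 lower (median 0.81). JUNB, an AP-1 subunit, stood at 39.9, 40.3 and 43.1 CPM in DMSO, against 100.2, 116 and 111 CPM in HU (1.41 ± 0.10, edgeR adjusted p 0.00329). JUND, a second AP-1 subunit, went from 22.3, 23.9 and 20 CPM to 40.8, 50.3 and 41.3 CPM (1.0 ± 0.13, edgeR adjusted p 0.0218). The 1 that fell was TRIB1, a pseudokinase that hands substrates to a ubiquitin ligase, by 1.10 ± 0.14. Of 22 MAP kinase feedback genes, 5 were called higher and 0 lower (median 0.47), among them the phosphatases DUSP5, DUSP10, DUSP1 and DUSP2 at 6.30-fold, 3.62-fold, 2.66-fold and 1.91-fold. Of 25 NF-kB subunits and regulators, 2 were called higher and 1 lower (median 0.40). NFKBIE, an inhibitor that NF-kB itself induces, went from 32.3, 36.9 and 43.7 CPM to 113, 105 and 109 CPM (1.54 ± 0.22, edgeR adjusted p 0.0224). PPP1R15A, a regulatory subunit of a phosphatase of eIF2 alpha, went from 6.15, 6.76 and 6.47 CPM to 71.4, 60.9 and 43.4 CPM (3.18 ± 0.30, edgeR adjusted p 0.00884). It was 1 of 2 calls among 27 integrated stress response genes (2 higher, 0 lower). Against Thy-Noc, JUNB (1.28 ± 0.10), NFKBIE (1.57 ± 0.22) and PPP1R15A (2.91 ± 0.29) were higher in HU, with edgeR adjusted p from 0.0119 to 0.0315. The letters GGGANTTTC, an NF-kB motif, were in 2.82% of matched promoters of genes called higher (5 of 177). They were in 1.41% of those called lower (2 of 142) and in 1.13% of all matched tested genes. Of the 5, GCA and IFIH1 hold the same site, read on opposite strands. The AP-1 letters, TGANTCA, were in 3.95%, 4.23% and 4.07% of the same sets. Without HU replicate 2, edgeR called 5 AP-1, 5 MAP kinase feedback, 2 NF-kB and 2 stress response genes higher. With any other library left out, these counts were 1, 0, 0 to 1 and 0 to 2.

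B-cell regulators had calls in both directions. Of 44 germinal centre and B-lineage transcription factors and partners, 3 were called higher and 2 lower (median −0.12). LMO2, a LIM-domain cofactor of germinal centre B cells, went from 5.62, 2.73 and 3.62 CPM to 24.7, 16.1 and 26.7 CPM (2.49 ± 0.34, edgeR adjusted p 0.0222). BACH2, a repressor of plasma cell fate, went from 11.4, 11.3 and 12.0 CPM to 3.39, 5.91 and 3.81 CPM (−1.40 ± 0.25, edgeR adjusted p 0.0349). LMO2 was also higher and BACH2 lower than in Thy-Noc, by 2.66 ± 0.34 and −1.42 ± 0.25 (edgeR adjusted p 0.0238 and 0.0443). FCRL3, an Fc receptor-like protein, differed in each comparison in an opposite direction. Its levels were 37.4, 26.4 and 41.2 CPM in the DMSO libraries, 6.86, 10.4 and 8.93 CPM in HU, with 1.46, 1.41 and 2.13 CPM in Thy-Noc, so HU lay below DMSO (−2.0 ± 0.28, edgeR adjusted p 0.0222) and above Thy-Noc (2.39 ± 0.28, edgeR adjusted p 0.0186). MBD1, a methyl-CpG reader named in the title of the series, rose 3.12-fold over DMSO and differed from Thy-Noc by 0.45 ± 0.24, which did not pass (edgeR adjusted p 0.363). Of the 44 transcription factors, 3 higher and 2 lower were called without HU replicate 2, and with any other library left out 0 to 2 higher and 0 lower.

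**Figure D4:**
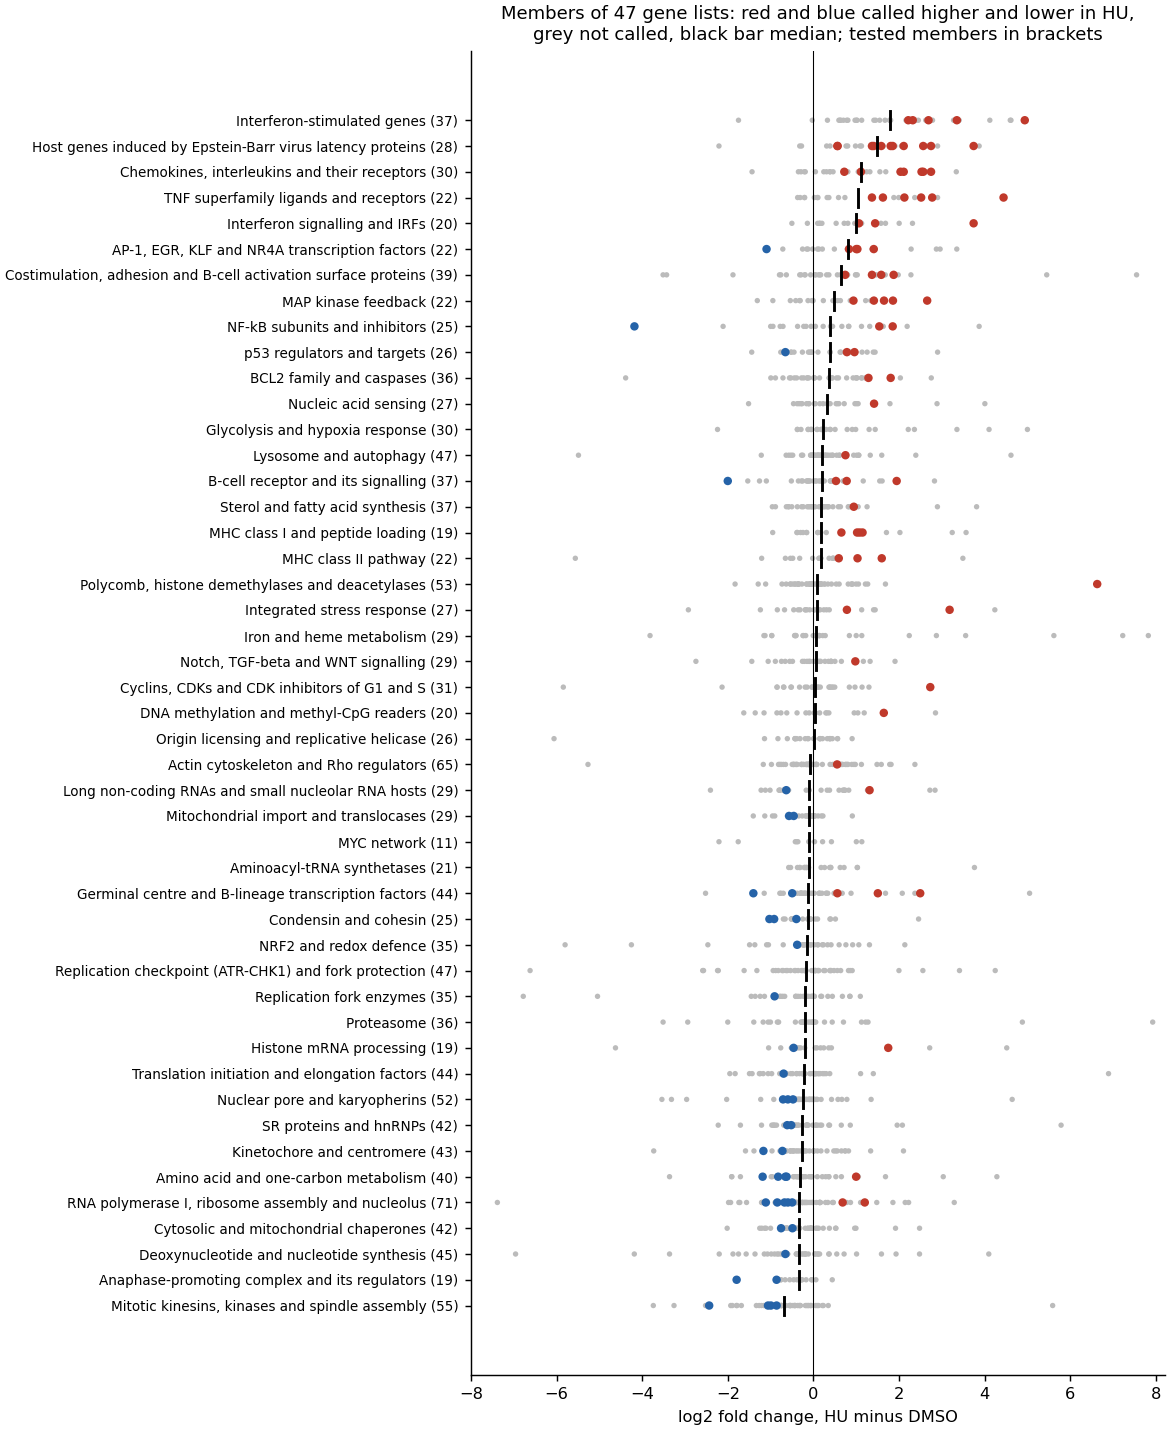
Log2 fold change of HU over DMSO (horizontal axis) for every tested member of 47 gene lists, ordered by median (black bar), with the number of tested members in brackets. Red and blue points were called higher and lower, grey points were not called, and 6 members lie outside the drawn range. Interferon-stimulated genes have the highest median and the list of mitotic kinesins and kinases the lowest.

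All calls in the mitotic lists were in the lower direction. Of 55 mitotic kinesins, kinases and spindle assembly genes, 48 had a negative fold change, 4 were called lower and 0 higher, and the median was −0.69. CDCA8, the borealin subunit of the chromosomal passenger complex, went from 25.3, 21.9 and 14.6 CPM to 3.77, 5.93 and 1.73 CPM (−2.44 ± 0.46, edgeR adjusted p 0.0412). CCNA2, cyclin A, went from 77.7, 85.1 and 88.0 CPM to 46.8, 38.8 and 52.5 CPM (−0.86 ± 0.13, edgeR adjusted p 0.0259). CKS2, a partner of cyclin-dependent kinases, and DEPDC1B, a regulator of mitotic entry, fell by 1.06 ± 0.13 and 0.99 ± 0.19. Among 43 kinetochore genes (median −0.28, 0 called higher), CENPF, a kinetochore protein of late cell cycle stages, fell by 1.17 ± 0.15 (edgeR adjusted p 0.0180). Of 19 genes of the anaphase-promoting complex, 2 were called lower and 0 higher (median −0.34): CDC20, its activator, at 211, 211 and 189.9 CPM in DMSO against 64.7, 41.3 and 70.3 CPM in HU, and UBE2S, which extends its ubiquitin chains. Of 25 condensin and cohesin genes and relatives, 3 were called lower and 0 higher (median −0.13): TOP2A, the topoisomerase that untangles sister chromatids, NCAPH, a condensin subunit, and RAD21, a cohesin subunit. Without HU replicate 2, edgeR called 3 mitotic kinesin and kinase genes, 1 kinetochore, 1 anaphase-promoting complex and 3 condensin and cohesin genes lower. With any other library left out these counts were 0 to 1, 0, 0 and 0.

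All but CDCA8 of the mitotic genes just named were also lower than in Thy-Noc. CDC20 stood at 339, 215 and 261 CPM there, so HU lay below it by −2.21 ± 0.24 on the log2 scale (edgeR adjusted p 0.0169). CKS2 (−1.30 ± 0.13), CENPF (−1.17 ± 0.15) and TOP2A (−0.97 ± 0.15) had edgeR adjusted p of 0.0131, 0.0234 and 0.0368, and CDCA8 did not pass (0.0826). Mitotic promoters often carry a CHR, here TTTGAA on either strand, and a CCAAT box. The CHR letters were in 51.0% of 100 matched promoters of the mitotic lists, in 13.4% of matched genes called lower, in 12.4% of those called higher and in 9.91% of all matched tested genes. CCAAT was in 65.0%, 44.4%, 36.2% and 38.4% of the same sets. The stretches below, with CHR letters in capitals, lie upstream of the start at chr1:43358886-43358951 (plus strand, CDC20), chr9:89311136-89311194 (plus, CKS2) and chr17:40418012-40418077 (minus, TOP2A).
CDC20: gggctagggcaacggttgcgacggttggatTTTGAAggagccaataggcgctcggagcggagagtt
CKS2: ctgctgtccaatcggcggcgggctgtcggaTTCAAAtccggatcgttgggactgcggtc
TOP2A: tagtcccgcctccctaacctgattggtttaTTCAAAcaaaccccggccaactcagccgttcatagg
These matches end 59, 23 and 145 bases before the start, and each window here also shows CCAAT letters or their reverse complement in lower case.

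Each list of DNA replication and related genes here had 0 or 1 call, beside 3.56% of all tested genes. Given their size, these counts do not set the lists apart from other genes. Over all 11346 tested genes, 2405 had an unadjusted p below 0.05. DESeq2 called 1079 of all genes higher and 1056 lower, and limma with 0.5 CPM added called 314 and 248. None of 26 origin licensing and helicase genes was called by edgeR (4 had an unadjusted p below 0.05, DESeq2 called 2 and limma 1), and their median was 0.01. None of 47 genes of the ATR-CHK1 checkpoint and fork protection was called either (11 at an unadjusted p below 0.05, 9 by DESeq2, 0 by limma), with a median of −0.17. Of 35 fork enzymes, TOP1, topoisomerase I, was called lower, going from 1494, 1741 and 1485 CPM to 709, 994 and 811 CPM (−0.91 ± 0.14, edgeR adjusted p 0.0263). Among 45 genes of nucleotide synthesis (median −0.34), RRM2B, the p53-inducible subunit of the enzyme that HU inhibits, was the 1 called, at 130.1, 184 and 158 CPM in DMSO against 94.1, 99.9 and 106 CPM in HU (−0.66 ± 0.13, edgeR adjusted p 0.0466). RRM1, the large subunit of that enzyme, was not steady enough to compare, and RRM2, its small subunit, stood at 2.80, 14.3 and 8.39 CPM in DMSO against 18.5, 12.5 and 1.62 CPM in HU. The iron-containing enzyme is the target of HU, and of 29 iron and heme genes none was called (6 at an unadjusted p below 0.05, 5 by DESeq2, 0 by limma). CCNE2, a cyclin E of S phase entry, was the 1 of 31 G1 cyclins, kinases and inhibitors called, at 9.91, 11 and 9.70 CPM in DMSO against 66.4, 35.1 and 101 CPM in HU (2.73 ± 0.49, edgeR adjusted p 0.0377). Without HU replicate 2, edgeR called 1 fork enzyme, 0 nucleotide synthesis genes and 1 gene of the G1 list, and with any other library left out it called 0 in each.

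Several genes of chromatin proteins other than histones were called lower. These families were chosen after their values were seen. All 3 tested HMGB genes, whose products bend DNA, were called lower: HMGB1 went from 1706, 1912 and 1717 CPM to 845, 703 and 1017 CPM (−1.06 ± 0.15, edgeR adjusted p 0.0222), and HMGB2 and HMGB3 fell by 0.74 ± 0.14 and 0.59 ± 0.11. Of 4 HMGN genes, whose products bind nucleosomes, HMGN2 and HMGN5 were called lower, HMGN2 going from 904, 1385 and 983 CPM to 463, 421 and 481 CPM. HMGN1 (−0.46 ± 0.12) and HMGN4 (−0.04 ± 0.13) did not pass (edgeR adjusted p 0.0847 and 0.909). The 3 ANP32 genes, histone chaperones and phosphatase regulators, were called lower, with ANP32E, which removes the variant H2A.Z, at −0.88 ± 0.15 and ANP32B at −0.82 ± 0.09. NUCKS1, a related nuclear DNA-binding protein, went from 266, 291 and 249 CPM to 139.6, 157 and 148 CPM (−0.86 ± 0.09, edgeR adjusted p 0.0140). In each of these called genes, as in every gene called lower, the HU libraries lay below all DMSO libraries. The 4 FAM72 genes fell together, by 1.03 to 1.14 on the log2 scale, but are near-identical copies that can share reads. So can the 4 called pseudogenes of HMGB1 and HMGN2.

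Calls in the lists of growth genes were mostly in the lower direction, beside 1.56% called lower and 2.0% called higher over all tested genes. Among all tested genes above a mean of 100 CPM, 4.67% were called lower and 1.99% higher. The part of expression level in the counts of these lists was not tested. Of 71 RNA polymerase I, ribosome assembly and nucleolar genes, 5 were called lower and 2 higher (median −0.33). The 2 that rose, TAF1D and RRN3, act in RNA polymerase I initiation. Of 52 nuclear pore and karyopherin genes, 40 had a negative fold change, 3 were called lower and 0 higher (median −0.25): NUP37 and NDC1, pore components, and KPNA3, an importin. Of 42 SR proteins and hnRNPs, SRSF1, a splicing factor, and HNRNPA0 were called lower and 0 higher. Of 42 chaperones, CCT4, a subunit of the cytosolic chaperonin, and HSPD1, the mitochondrial one, were called lower and 0 higher (median −0.33). HU replicate 2 was lowest for 28 of these 42, and their library medians were −0.21, −0.66 and −0.33 in HU replicates 1, 2 and 3. EIF4E, the cap-binding protein, fell by 0.70 ± 0.13 (edgeR adjusted p 0.0407) among 44 translation factors. Of 36 proteasome genes none was called (11 at an unadjusted p below 0.05, 11 by DESeq2, 1 by limma). Without HU replicate 2, edgeR called 1 gene lower in each of the ribosome assembly, nuclear pore, SR protein and chaperone lists and 0 translation factors. With any other library left out it called 0 lower in each, except 1 chaperone without DMSO replicate 2.

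Of 40 amino acid and one-carbon genes, 4 were called lower and 1 higher (median −0.32), and 2 of the 5 are enzymes of polyamines. SMS, spermine synthase, went from 117, 135 and 119 CPM to 82.2, 76.9 and 76.5 CPM (−0.66 ± 0.09, edgeR adjusted p 0.0224). SAT1, which acetylates spermine and spermidine for breakdown, went the other way, from 183, 147 and 152 CPM to 413, 291 and 258 CPM (1.0 ± 0.19, edgeR adjusted p 0.0419). BCAT1, the cytosolic branched-chain aminotransferase, went from 692, 708 and 656 CPM to 395, 381 and 384 CPM (−0.83 ± 0.08, edgeR adjusted p 0.0124). MAT2A, which makes the methyl donor S-adenosylmethionine, fell 2.28-fold, and SLC7A5, an amino acid transporter, 1.54-fold. The amino acid list had 4 lower calls without HU replicate 2, 0 without DMSO replicate 3 and 1 without any other library, and 0 higher in all 6 fits. Of 30 glycolysis and hypoxia genes none was called (6 at an unadjusted p below 0.05, 4 by DESeq2, 0 by limma), and their library median of 0.67 in HU replicate 2 stood apart from −0.03 and 0.08 in replicates 1 and 3.

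Several genes with the smallest p belong to none of these groups. NCKAP1, a subunit of the WAVE actin regulator, stood at 91.0, 94.7 and 99.7 CPM in the DMSO libraries, 35.3, 33.0 and 36.0 CPM in HU, with 95.9, 83.2 and 100.4 CPM in Thy-Noc, so that HU alone was low. UBE2J1, a ubiquitin-conjugating enzyme of the endoplasmic reticulum, went from 251, 265 and 221 CPM to 119, 109 and 119 CPM. ECE1, the endothelin-converting enzyme, went from 141, 150.1 and 146 CPM to 300.2, 268 and 321 CPM. SNHG32, a small nucleolar RNA host, went from 214, 209 and 222 CPM to 468, 594 and 536 CPM, while SNHG8, another host, fell by 0.64 ± 0.13. JSRP1, a junctional sarcoplasmic reticulum protein, went from 8.67, 8.76 and 9.32 CPM to 44.7, 37.2 and 32.6 CPM. The first 3 and JSRP1 had log2 fold changes of −1.45 ± 0.10, −1.08 ± 0.10, 1.02 ± 0.09 and 2.10 ± 0.16, with edgeR adjusted p from 0.00329 to 0.00884.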

How the data were processed

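The 9 libraries, 3 per group, were made with a stranded mRNA kit, per the labels. Tools listed in the submitters' processing notes are FastQC, Trim Galore, STAR and DESeq2, with the build GRCh38 and no versions. The authors deposited 1 table that is named CPM but holds whole numbers with unequal totals. These were taken to be expected counts that the authors had rounded before deposit, since they are whole numbers, as the deposited values show. Whole numbers do not prove rounding, because plain read counts would also be whole. The main test was edgeR, which takes counts, and limma was an alternative. Neither the counting tool nor its use of strand is given in the sources used here, so antisense, overlapping and near-identical genes are uncertain. Genes were identified by the deposited identifier. Of 15436, 15272 had coordinates in GENCODE release 29 (GRCh38). No column was left without a sample.

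A quasi-likelihood model with group as its only term was fitted to all 9 libraries in R 4.3.3 with edgeR 4.0.16, TMM scaling and 6 residual degrees of freedom. Tests were 2-sided with Benjamini-Hochberg adjustment over 11346 genes at 0.05. CPM values use TMM-scaled totals. Errors of log2 fold changes are standard errors. Tested genes had a median count of 1187. The steps were tested on counts simulated from genes without a 10-fold range in a group, so genes with such a range were not covered.

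The gene lists and members were chosen with earlier results of these data known. Named genes are the 15 highest and 15 lowest fold changes among called genes of at least 5 CPM, the 10 smallest p per direction, the 5 largest CPM changes per direction, at most 4 called members in each direction of a list, and a fixed set of 10. HELZ2, TNFSF4, CXCR5, CCL22, IL2RG, TRAF5, PLEK and members of the families were named after their values were seen. Lists are described by counts and medians, with no test of a list. Alternatives were DESeq2 1.42.0, limma 3.58.1, other filters and scalings, a block for the replicate number, only the 6 libraries compared, genes without a 10-fold range in a group, and leaving out each library. Same-numbered DMSO and HU libraries did not deviate together (correlations −0.016, 0.0044 and −0.035), so the numbers were not used as pairs. One gene is not reported here.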

Additional observations from a re-analysis of the deposited data

How the results depend on the processing

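The direction and an unadjusted p below 0.05 were kept for all 404 called genes by every alternative that tested them. This was largely fixed in advance, because the 404 were picked by small p and had no overlap between the groups. The number past the adjusted threshold moved widely. HU against DMSO (227 higher, 177 lower) had 133 higher and 87 lower with no filter on low counts, 25 and 13 with only the 6 libraries, 1079 and 1056 by DESeq2, and 416 and 305 without genes of a 10-fold range in a group. With the replicate block it had 7 and 2, and HU against Thy-Noc 0 and 0. Leaving out single libraries gave 12 to 163 higher and 8 to 113 lower. HU against Thy-Noc (79 higher, 120 lower) had 30 and 34 with no filter, 6 and 12 with 6 libraries, 900 and 926 by DESeq2, and 239 and 233 without genes of a 10-fold range. Its higher count was 137 at a CPM minimum of 5. By limma with 0.1, 0.5 and 1 CPM added, its higher counts were 138, 148 and 165, and with 1 CPM added its lower count was 181. Leaving out single libraries gave 0 to 54 higher and 1 to 56 lower. The causes were not tested. RRM1 reversed from −6.96 to 1.24 without DMSO replicate 2 (lowest −7.54, without DMSO replicate 1). RRM2 reversed from 0.36 to −0.06 without DMSO replicate 1 and −0.27 without HU replicate 1 (highest 0.97, without DMSO replicate 2). Genes under the CPM minimum were not tested, so changes in them were not detectable.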

Other observations

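The kinds of gene that held the calls were uneven. Among 1757 genes above a mean of 100 CPM, 4.67% were called lower and 1.99% higher, while among 3262 genes under 5 CPM these shares were 0.429% and 1.72%. CPM is not scaled to gene length, and the part of test power in these shares was not tested. Protein-coding genes whose longest transcript has 2 to 4 exons were called higher in 3.33% of 1233 cases, and those with over 20 exons in 1.57% of 1526. Genes with a 10-fold range in a group made up 8.84% and 21.5% of the same classes.

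Counts in other families, chosen after their values were seen, are a description with no test. Of 316 genes named ZNF, 8 were called higher and 1 lower (median log2 fold change 0.25), and of 153 solute carriers 6 and 2 (median 0.09). Over all tested genes 2.0% were called higher and 1.56% lower, so the higher count of the ZNF genes lay near the overall share. Of 76 mitochondrial ribosomal protein genes, 59 had a negative fold change, and 6 were called lower and 0 higher (median −0.31). Of 18 mitochondrial transfer RNA genes, 3 were called lower and 0 higher, with a median of 0.39. The E-box letters CACGTG were in 17.6% of 142 matched promoters of genes called lower, in 6.78% of 177 called higher and in 10.4% of all 8657 matched tested genes, a description with no test.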
